A study of Mus musculus with 6 samples.

Results

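The ARID genes encode nuclear proteins that share an AT-rich interaction domain, a helix-turn-helix fold that contacts DNA. The family is known for several kinds of chromatin regulator: Arid1a, Arid1b and Arid2 are subunits of SWI/SNF remodelling complexes, Arid4a and Arid4b bind the retinoblastoma protein and act in SIN3 histone deacetylase complexes, Jarid2 is an accessory subunit of Polycomb repressive complex 2 (PRC2), and Arid3a and Arid3b are closely related DNA-binding factors. In the mouse embryo, loss of Arid3b is known to disturb heart and pharyngeal arch development, and loss of Jarid2 to disturb heart development.

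Expression of 10 ARID genes (Arid3b, Arid3a, Arid1a, Arid1b, Arid2, Arid4a, Arid4b, Arid5a, Arid5b and Jarid2) was read on every probe whose RefSeq accession belongs to one of them, which gave 20 of the 39429 non-control probes on the array. The samples were pools of mouse hearts at embryonic day 9.5, 3 from Arid3b-null embryos and 3 from wild-type embryos, each pool made from 4 embryos and hybridised to its own Agilent single-colour array. A heart included the heart tube with the pharyngeal mesoderm and endoderm under it, so each pool is mixed tissue, and a smaller share of a cell type and less RNA per cell cannot be told apart. The sources used here do not give the strain, the sex, how the null allele was made or which exons it lacks. Levels are log2 processed signal less the 75th percentile of the same array, and probes are not comparable with each other in level. A change is null minus wild type, and a probe was called changed at a limma adjusted p (Benjamini-Hochberg over all kept probes) under 0.05.

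Between 27136 and 29149 spots were well above background on the null arrays, and between 29139 and 31039 on the wild-type arrays, of 43020 non-control spots each. No spot was saturated, and 3 arrays per group limit the precision of every value. Each of the 3 slides held the null and the wild-type pool of the same number, the null pool always in the same place, so place and genotype cannot be told apart. Null pool 1 and wild-type pool 3, on different slides, stood apart in the same way: their deviations from their group means correlated at 0.48 over 26846 probes (Pearson, across probes, which are not independent replicates). Of the 7 cardiomyocyte markers listed for this work, all were well above background on all 6 arrays and none was called (limma, 0 with an unadjusted p under 0.05). Of the 7 megakaryocyte and the 8 hypoxia markers all were called higher in null, with median changes of 2.75 and 2.41. Of the 7 erythroid markers 0 were called (limma, 5 had an unadjusted p under 0.05), with differences within slides of 0.29, 2.32 and -0.08 at the median. Over all 15248 genes with a symbol, 10.8% were called, 6.94% higher and 3.86% lower in null. An unadjusted limma p under 0.05 was common: by their ranks, between 5367 and 8219 of the 26865 kept probes had one.

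Promoter sequences from RefSeq (build GRCm38.p6, 250 bases before the annotated start) are shown for Arid3b, Jarid2 and Arid5a. The last 2 are the single-probe genes whose null pools all lay above all wild-type pools. They were picked on these values, and Arid5a was not called. The 2 motifs below were sought on both strands. ATTAA is the AT-rich core that mouse Arid3a is known to bind (TTAAT on the other strand). ACGTG, which on the other strand reads CACGT, is 1 form of the core of the hypoxia-response element. The other form, GCGTG, was not sought and is not marked. Capitals mark a match.
Arid3b, chr9:57836780-57837029, minus strand: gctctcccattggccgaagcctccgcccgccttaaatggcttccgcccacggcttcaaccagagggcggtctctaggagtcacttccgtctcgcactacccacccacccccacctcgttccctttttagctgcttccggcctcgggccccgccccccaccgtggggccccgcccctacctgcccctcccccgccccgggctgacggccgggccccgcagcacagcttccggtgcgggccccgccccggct
Jarid2, chr13:44730524-44730773, plus strand: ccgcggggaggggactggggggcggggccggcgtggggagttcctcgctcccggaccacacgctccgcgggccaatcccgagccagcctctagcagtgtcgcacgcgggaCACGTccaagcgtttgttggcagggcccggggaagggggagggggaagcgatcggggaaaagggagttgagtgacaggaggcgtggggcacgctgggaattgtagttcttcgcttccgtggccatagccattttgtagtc
Arid5a, chr1:36307483-36307732, plus strand: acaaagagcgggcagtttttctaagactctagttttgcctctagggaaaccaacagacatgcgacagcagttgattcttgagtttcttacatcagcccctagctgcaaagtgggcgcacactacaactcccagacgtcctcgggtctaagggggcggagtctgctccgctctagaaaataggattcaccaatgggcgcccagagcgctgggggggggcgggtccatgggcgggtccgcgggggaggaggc
The only match to the 2 motifs sought was the CACGT in the Jarid2 promoter shown, where it begins 140 bases before the start. Arid3b and Jarid2 each had another annotated start, not shown, without a match. Of the 10 members, 7 had promoters in the table, 10 in all counting alternative starts. ATTAA occurred in 0 of these 10, against 24.9% of all 32851 promoters read in the same window, and ACGTG in 1 of the 10, against 16.6% of all. The 10 member windows ran from 42.0% to 81.6% G and C. No overlap of the motifs occurred in them, and a missing match says only that these letters are not in this window.

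Arid3b was the member with by far the largest difference. Its brightest probe, A_51_P161554, read 1.08, 0.52 and 0.45 in null pools 1, 2 and 3, against 2.91, 3.40 and 3.69 in wild-type pools 1, 2 and 3. The groups lay well apart, with every null pool at least 1.83 log2 units below its slide neighbour. The means were 0.68 ± 0.34 in null pools and 3.33 ± 0.39 in wild-type pools (SD, n = 3 each), a log2 change of -2.65 (SE 0.26, 95% interval -3.26 to -2.04, limma adjusted p = 0.0018). The null signal on this probe was 15.9% of wild type, and all 3 null arrays still measured it above background.

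The other Arid3b probes were dimmer and also fell. A_55_P2123993 read -5.69, -5.79 and -5.78 in the null pools, against -1.98, -1.78 and -1.44 in the wild-type pools. Its log2 change was -4.02 (SE 0.18, 95% interval -4.45 to -3.59, limma adjusted p = 0.000146), which left 6.16% of the wild-type signal. A_55_P2123987 read -6.27, -6.85 and -5.75 in the null pools, against -3.72, -3.54 and -3.87 in the wild-type pools. Its log2 change was -2.58 (SE 0.28, limma adjusted p = 0.00253), which left 16.7%. For both, 2 null arrays and all 3 wild-type arrays were well above background. With normexp background correction of the median spot signals, an offset of 50 added to every spot, and quantile normalization, their changes were -2.06 and -0.88 while that of the brightest probe was -2.57. Quantile normalization of the processed signals alone gave -4.11 and -2.71, and -2.61 for the brightest probe, so the order of the 3 probes by size of the fall depends on the processing. All 3 passed the threshold in every alternative in which they were tested, with adjusted p up to 0.0327. The fall on all 3 probes checks the labels. The labels do not place the probes against the deletion, so the remaining signal says nothing of which transcripts remained.

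**Figure D1:**
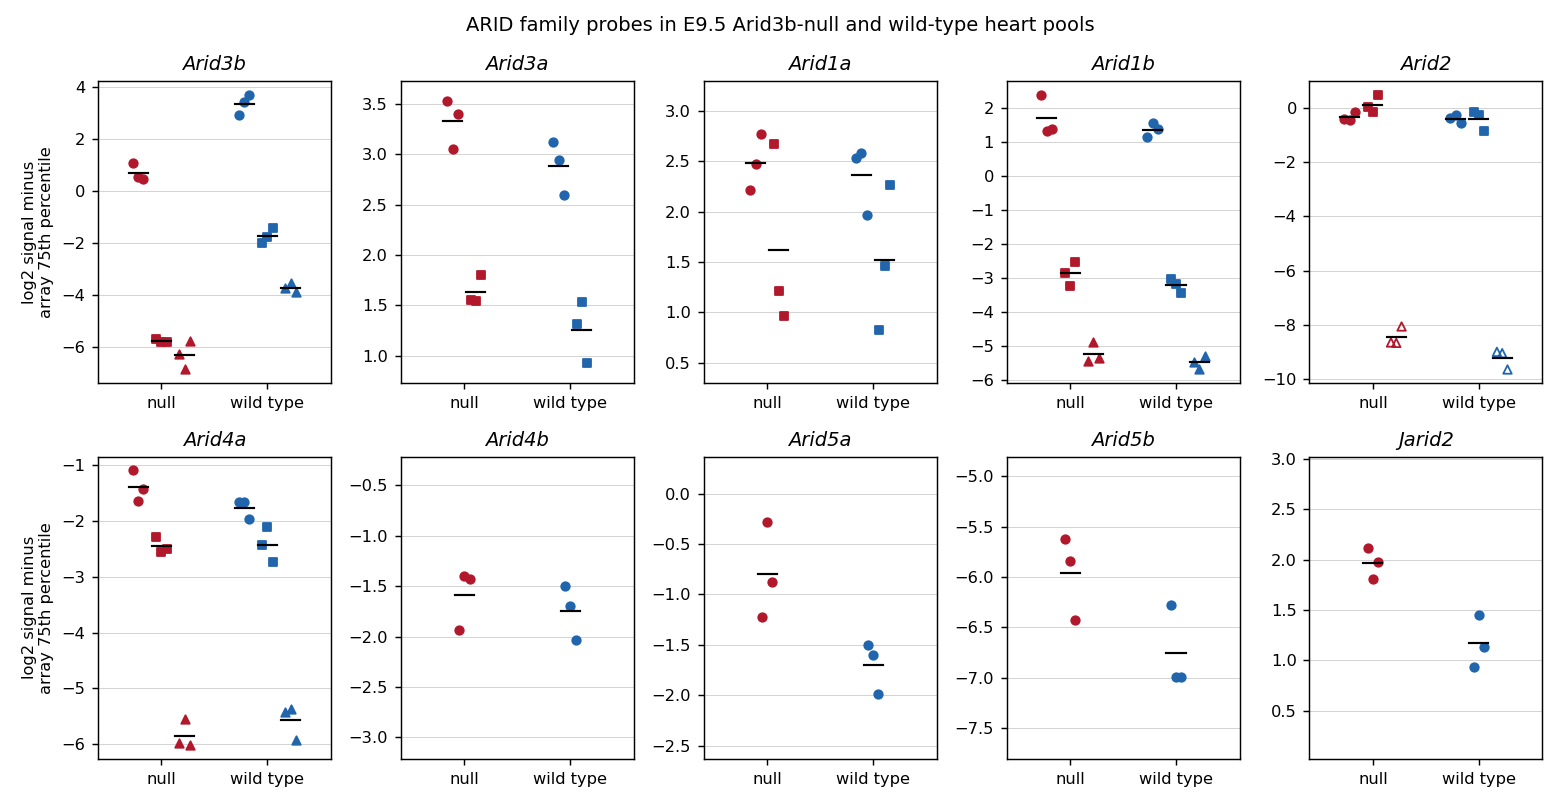
Log2 signal relative to the array's 75th percentile (vertical axes, each panel on its own range) of all 20 ARID family probes in the 3 null pools (red) and the 3 wild-type pools (blue). Marker shapes separate probes of a gene, the lines are group means, and open symbols mark the 1 probe that was well above background on no array. The Arid3b groups are separated on all 3 probes, while most other groups overlap.

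Among the other 9 genes few differences between null and wild-type hearts exceeded the spread between pools. Of their 17 probes, 16 had signal well above background on at least 3 arrays and entered the test. The exception was the Arid2 probe A_55_P1975031, which had it on none. Of the 16, 1 was called (Jarid2, higher in null) and 3 had an unadjusted p under 0.05 (Jarid2, Arid5a and Arid5b, all higher in null). Such p values were common on the array: the Arid5b probe (limma unadjusted p = 0.0249) ranked only 5367 by p among the 26865 kept probes. Over all 26865 kept probes 10.2% were called, 6.43% higher and 3.74% lower in null, so a single call among 16 is near the background. Null and wild-type ranges were separate for 4 of the 16, all higher in null, against 32.8% of all kept probes in either direction and 17.9% in that one. The changes ran from -0.27 to 0.90, and 14 were above 0 and 2 below. Their median was 0.35 and that of all kept probes 0.02. With each array scaled to its median instead, 11 were above 0 and 5 below, with medians of 0.22 for the members and -0.11 for all kept probes, a shift of all changes that leaves the members' place among the other probes the same.

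**Figure D2:**
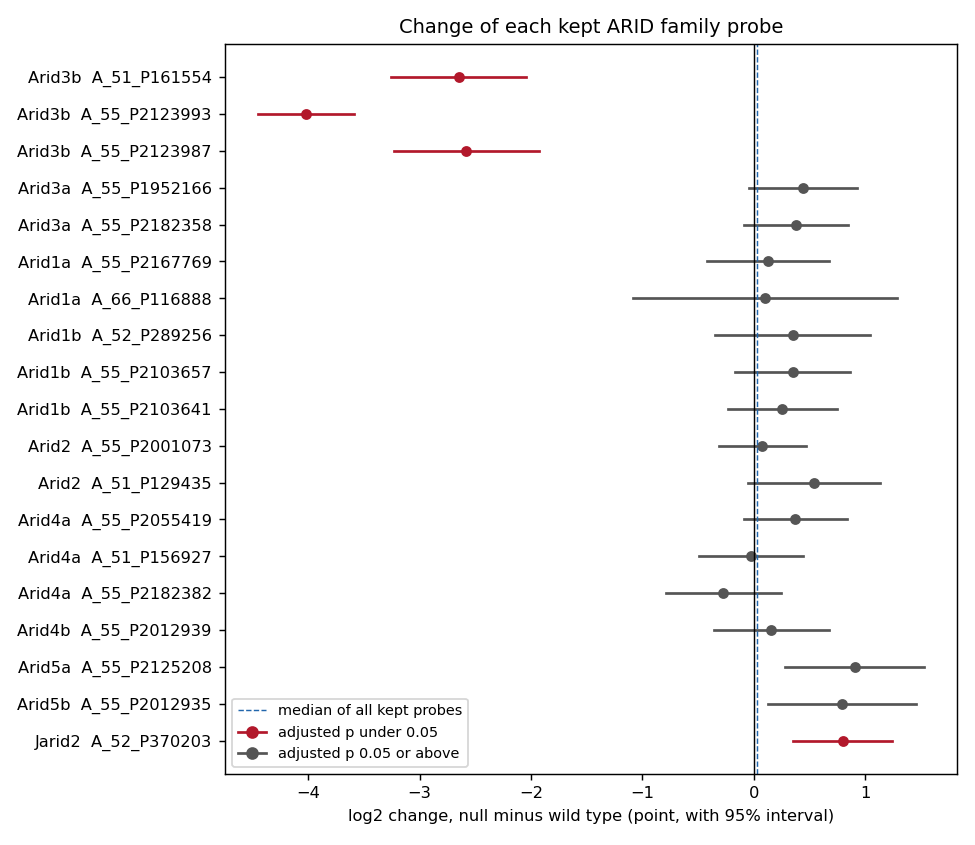
Log2 change, null minus wild type, of the 19 kept ARID family probes (point), with the 95% interval from limma (line), red where the adjusted p was under 0.05. The 3 Arid3b probes lie between -4.02 and -2.58, and the 16 others between -0.27 and 0.90.

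Arid3a, a close relative of Arid3b known as a regulator of immunoglobulin heavy-chain transcription in B cells, was not called on either of its probes. The probe A_55_P1952166 read 3.53, 3.06 and 3.40 in the null pools, against 3.12, 2.95 and 2.60 in the wild-type pools, and the ranges overlapped only through null pool 2 and wild-type pool 1. Its log2 change was 0.44 (SE 0.21, limma adjusted p = 0.221), and the 95% interval of the fold ran from 0.97 to 1.90. The probe A_55_P2182358 read 1.55, 1.55 and 1.80 in the null pools, against 1.31, 1.53 and 0.92 in the wild-type pools. Here the groups did not overlap, by a margin that is small beside their spread, and the change was 0.38 (SE 0.20, limma adjusted p = 0.279, fold interval 0.94 to 1.80). Both probes thus read slightly higher in the null pools, by 0.41 and 0.24 within slide 1, 0.11 and 0.01 within slide 2 and 0.81 and 0.87 within slide 3. These intervals hold both no change and a rise up to their upper bounds, and neither probe passed the limma test in any alternative run (lowest adjusted p = 0.121).

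Jarid2 was the only other member called. It belongs to the jumonji family but lacks histone demethylase activity, and it helps to bring PRC2 to its targets. Its 1 probe, A_52_P370203, read 2.11, 1.80 and 1.98 in the null pools, against 0.93, 1.45 and 1.14 in the wild-type pools, so that every null pool lay above every wild-type pool. The means were 1.97 ± 0.16 in null pools and 1.17 ± 0.26 in wild-type pools (SD, n = 3 each). The log2 change was 0.80 (SE 0.19, 95% interval 0.35 to 1.24), a 1.74-fold rise with limma adjusted p = 0.0408. Within slides 1, 2 and 3 the null pool lay 1.18, 0.36 and 0.84 above its neighbour. The direction held in all 17 alternatives, but the call held in 7 of them: it ended when any 1 of the 6 pools was left out (adjusted p from 0.0635 to 0.113), under median scaling (0.0853), when dim probes were not filtered (0.100), in the fit blocked by slide (0.171) and when null pool 1 and wild-type pool 3 were both dropped (0.155). In the same pools the log2 of the summed relative signals of the 8 hypoxia markers was 7.26 to 7.31 in null pools and 5.32 to 5.83 in wild-type pools. Such a sum is weighted to the brightest genes of a list. For the 7 megakaryocyte markers it was 5.21 to 5.92 in null pools and 1.42 to 2.40 in wild-type pools. The part of hypoxia and of megakaryocytes in the Jarid2 value was not tested.

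The Arid5 genes had changes of like size to that of Jarid2 and did not pass. Arid5a, known as an RNA-binding protein that stabilises inflammatory transcripts, read -1.23, -0.28 and -0.88 in the null pools on A_55_P2125208, against -1.50, -1.61 and -1.99 in the wild-type pools. The null pools were all higher, and they spread more widely than the wild-type pools. The log2 change was 0.90 (SE 0.27, 95% interval 0.28 to 1.53, limma adjusted p = 0.0754). It passed with array weights (adjusted p = 0.029) and without null pool 1 (0.0456), and in none of the 15 other alternatives. Arid5b, a coactivator partner of the demethylase Phf2, was near background: A_55_P2012935 read -5.62, -5.84 and -6.43 in the null pools, against -6.28, -6.99 and -6.99 in the wild-type pools. Only 2 arrays of each group were well above background, and the groups overlapped. The log2 change was 0.79 (SE 0.28, limma adjusted p = 0.124), and with normexp and quantile normalization it was 0.13. Phf2 itself read -0.91, -1.72 and -2.17 in the null pools, against -1.58, -1.15 and -0.80 in the wild-type pools (change -0.43, SE 0.34, limma adjusted p = 0.47).

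The SWI/SNF subunits were not called on any probe. Arid1a and Arid1b are alternative subunits of the BAF form of the complex. The brightest Arid1a probe, A_55_P2167769, read 2.21, 2.48 and 2.77 in the null pools, against 2.53, 2.59 and 1.96 in the wild-type pools (change 0.13, SE 0.23, fold interval 0.75 to 1.59, limma adjusted p = 0.779). The other, A_66_P116888, read 2.67, 1.21 and 0.97 in the null pools, against 0.83, 1.46 and 2.26 in the wild-type pools (change 0.10, SE 0.51, fold interval 0.47 to 2.44, limma adjusted p = 0.924). The spread of that probe was the widest in the family, with SDs of 0.92 in null pools and 0.72 in wild-type pools, and only 2.07% of all kept probes had a larger SE. Null pool 1 and wild-type pool 3, the arrays that stood apart together, were its 2 highest readings and the 2 lowest of the other Arid1a probe, and within slides 1, 2 and 3 its difference was 1.85, -0.25 and -1.29. Without these 2 pools its change was -0.05.

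Arid1b read 2.38, 1.32 and 1.37 in the null pools on A_52_P289256, against 1.13, 1.54 and 1.36 in the wild-type pools. Null pool 1 alone stood above the rest, and without it the change fell to 0.01, against 0.35 with it (SE 0.30, limma adjusted p = 0.499). Its dimmer probes changed by 0.35 (A_55_P2103657) and 0.25 (A_55_P2103641), with adjusted p = 0.357 and 0.482 in limma. Arid2, the ARID subunit of the PBAF form, read 0.02, -0.15 and 0.48 in the null pools on A_51_P129435, against -0.14, -0.26 and -0.86 in the wild-type pools. Its change was 0.54 (SE 0.25, limma adjusted p = 0.225), and the difference was 0.16, 0.11 and 1.34 within slides 1, 2 and 3. The probe A_55_P2001073 of the same gene changed by 0.08 (SE 0.17, fold interval 0.80 to 1.38).

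Arid4a and Arid4b, the retinoblastoma-binding members, were not called. On A_55_P2055419 Arid4a read -1.09, -1.64 and -1.42 in the null pools, against -1.65, -1.65 and -1.97 in the wild-type pools (change 0.37, SE 0.20, limma adjusted p = 0.28). Null pool 2 and wild-type pools 1 and 2 were nearly equal there. The other Arid4a probes went slightly the other way, by -0.03 (A_51_P156927) and -0.27 (A_55_P2182382), so the 3 probes gave no common direction. Arid4b read -1.93, -1.40 and -1.43 in the null pools on A_55_P2012939, against -1.50, -1.70 and -2.03 in the wild-type pools, and the groups overlapped (change 0.16, SE 0.22, fold interval 0.78 to 1.59, limma adjusted p = 0.7).

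**Figure D3:**
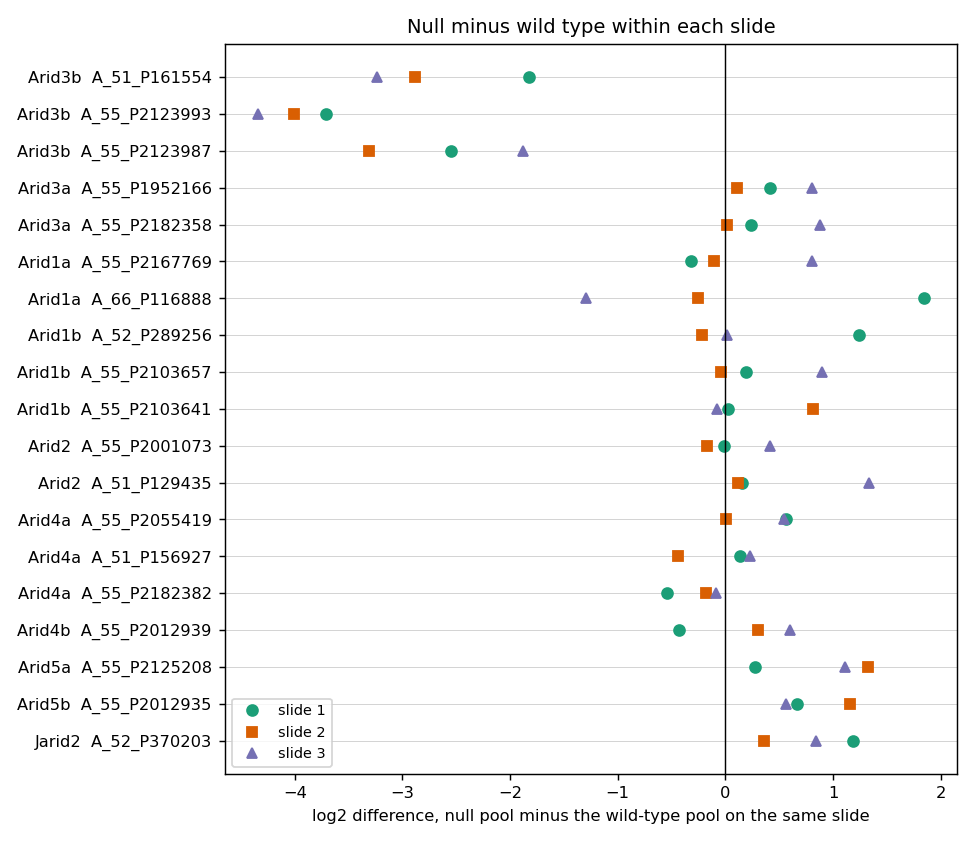
Log2 difference between the null pool and the wild-type pool on the same slide, for each of the 19 kept probes and for slides 1 (circle), 2 (square) and 3 (triangle). The Arid3b probes lie below 0 on all 3 slides and the Arid5a, Arid5b and Jarid2 probes, among others, above 0, while the Arid1a probe A_66_P116888 ranges from -1.29 to 1.85.

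Other ARID genes and the complexes that ARID proteins join were read on the brightest kept probe of each gene. Of 65 measured genes in 6 lists, 3 were called, which is 4.62%, against 10.8% of all 15248 genes with a symbol (6.94% higher and 3.86% lower in null). Their median change was -0.10, against 0.01 for all genes. Counts of unadjusted p under 0.05 in these lists stand beside between 5367 and 8219 of all 26865 kept probes with such a p. Of the ARID genes outside the 10, Arid3c had no kept probe and the histone H3K4 demethylase genes Kdm5a, Kdm5b, Kdm5c and Kdm5d were measured. None was called by limma, while 3 had an unadjusted p under 0.05, and in all 4 the null pools lay above the wild-type pools, as they did for 17.9% of all kept probes. Kdm5b read 4.25, 4.26 and 4.39 in the null pools, against 3.32, 3.95 and 3.26 in the wild-type pools (change 0.79, SE 0.22, adjusted p = 0.0606). The dimmer kept probes of Kdm5b and Kdm5c changed by 0.37 and 0.10 (limma adjusted p = 0.399 and 0.879).

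Kdm5d, which lies on the Y chromosome, read -3.42, -4.33 and -4.44 in the null pools, against -4.86, -5.59 and -4.99 in the wild-type pools (change 1.08, SE 0.32, limma adjusted p = 0.0739), and its change was 0.41 with normexp and quantile normalization. The Y-linked genes Ddx3y, Uty and Eif2s3y, looked up after the Kdm5d value was seen, changed by 0.77, 0.88 and 0.98 in the same direction. Their groups did not overlap, as was so for 17.9% of all kept probes in that direction. Uty was not well above background on all 6 arrays. Eif2s3y passed the test (limma adjusted p = 0.0223). Xist, the X-inactivation RNA of female cells, changed by 0.06 (SE 0.44). No label gives the share of male embryos in the pools, and its part in the Kdm5d value was not tested.

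Of 27 measured BAF and PBAF subunits, 0 were called by limma (8 had an unadjusted p under 0.05, 3 higher and 5 lower), and the median was -0.18. The smallest p values belonged to Smarce1, a DNA-binding subunit, with a change of -0.67 on A_55_P2026291 (SE 0.18, adjusted p = 0.0592), and to Smarca2, an ATPase, with 0.64 (SE 0.18, adjusted p = 0.0705). The 2 Smarce1 probes disagree: A_55_P1989885 changed by -0.13 (limma adjusted p = 0.676), and where normexp and quantile normalization made it the brighter one the gene was read at -0.08, while A_55_P2026291 was then at -0.66. Of 11 PRC2 genes, 1 rose and 0 fell, with a median of 0.17. It was Ezh1, a methyltransferase subunit, which read 1.43, 1.69 and 1.80 in the null pools, against 1.08, 0.92 and 0.81 in the wild-type pools (change 0.70, SE 0.17, limma adjusted p = 0.0432). The dimmer Ezh1 probes A_55_P2155942 and A_55_P2017086 changed by 0.66 and 1.45 (limma adjusted p = 0.133 and 0.0412). The paralogue Ezh2 and the core subunits Eed and Suz12 changed by -0.13, -0.10 and 0.17.

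Of 16 genes of the SIN3 complex and the retinoblastoma family, 1 rose and 1 fell. Rb1, the retinoblastoma protein gene that gave Arid4a its older name, read -0.27, 0.07 and -0.05 in the null pools, against -0.89, -0.96 and -1.24 in the wild-type pools. The groups were clear of each other, with a change of 0.95 (SE 0.18, 1.93-fold, limma adjusted p = 0.0186). Suds3, a SIN3 complex subunit, read 0.29, 0.51 and 0.33 in the null pools, against 0.91, 1.30 and 1.69 in the wild-type pools, and fell by 0.92 (SE 0.22, limma adjusted p = 0.0412). Blocked by slide, none of the 3 called genes passed (limma adjusted p = 0.0936 for Rb1, 0.112 for Suds3 and 0.204 for Ezh1), nor when dim probes were not filtered (0.0547, 0.0977 and 0.109) or null pool 1 and wild-type pool 3 were both dropped (0.0516, 0.135 and 0.0831). Median scaling ended the call of Ezh1 (adjusted p = 0.0646), and normexp with quantile normalization that of Suds3 (0.0517). Left-out pools ended the call of Rb1 for wild-type pools 2 and 3 and null pools 2 and 3 (adjusted p up to 0.0769), that of Ezh1 for every pool but null pool 1 (up to 0.143) and that of Suds3 for every pool but wild-type pool 1 (up to 0.128).

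Of 6 E2F and DP factor genes, which include E2f1, a known partner of human ARID3A, 0 were called by limma and 4 had an unadjusted p under 0.05, 1 higher and 3 lower. The smallest p values were those of Tfdp1 (change -0.80, SE 0.22, adjusted p = 0.0575) and E2f2 (-0.57, SE 0.18, adjusted p = 0.0877). E2f1 itself changed by -0.04.

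**Figure D4:**
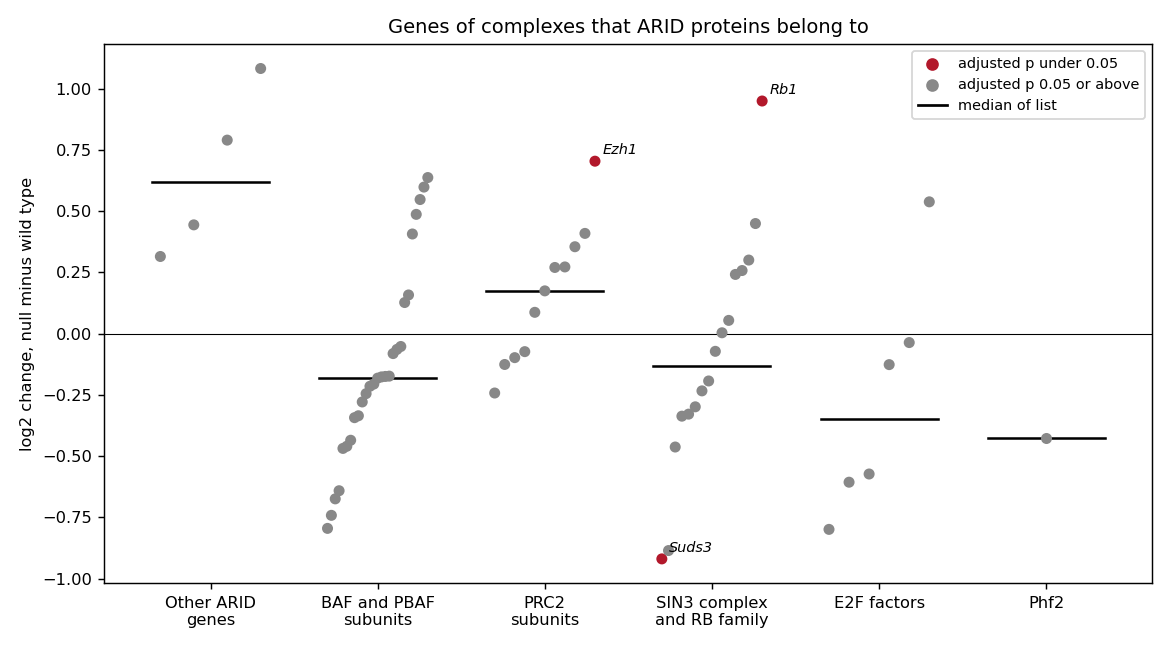
Log2 change, null minus wild type, of the 65 measured genes in 6 lists of other ARID genes and partners (points, in order of change within a list), red where the adjusted p was under 0.05, with the list median as a line. Rb1 (0.95) and Ezh1 (0.70) rose and Suds3 (-0.92) fell.

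The 5 genes whose pattern over the 6 arrays was most like that of the brightest Arid3b probe were Tagln3, Hs3st2, Nefm, Nkx1-2 and Pnliprp1. Likeness was the root mean square difference between profiles each centred on its own mean, and it was 0.19, 0.29, 0.30, 0.33 and 0.34 log2 units, against a median of 1.39 over 15232 genes. Tagln3, a neuronal calponin-family gene, read -2.45, -2.92 and -2.81 in the null pools, against -0.69, -0.44 and -0.07 in the wild-type pools. Nefm, a neurofilament subunit, read -4.85, -4.94 and -4.78 in the null pools, against -3.18, -2.55 and -2.18 in the wild-type pools. Hs3st2 was well above background on 0 null arrays and 3 wild-type arrays, so it passed the filter only through the wild-type group. With each array's lowest signal well above background as a floor for the null readings, its null mean was 6.87-fold lower. That floor is lenient: the Arid3b probe A_55_P2123993, at -5.69, -5.79 and -5.78 in the null pools, was well above background on only 2 null arrays. The 6.87 is therefore no lower bound on the fall, and it holds only for the processed signals. With normexp and quantile normalization the change of Hs3st2 was -0.40. Those of Nefm, Nkx1-2 and Pnliprp1 were then -1.13, -0.96 and -1.56, against -2.22, -3.07 and -2.39 on the main scale. Nkx1-2 was read on A_55_P2131016, which was well above background on 1 null array and 3 wild-type arrays. The other kept Nkx1-2 probe, A_51_P470304, changed by only -0.50, and by -0.08 with normexp and quantile normalization. A profile over these arrays is set mainly by the difference between the groups, so the list names genes with a fall of like size. The 5 genes were picked on these same values, so no p is given for them. Of the 6 neural markers listed for this work, 3 were called lower and 0 higher by limma, with a median change of -0.80. Of all genes with a symbol, 3.86% were called lower and 6.94% higher. Neurod1, 1 of the 3, was not well above background on all 6 arrays. It read -7.32, -8.54 and -8.00 in the null pools, against -5.43, -4.63 and -3.73 in the wild-type pools. The size of its fall is therefore uncertain. The log2 of the summed relative signals of the 6 markers, weighted to the brightest, was -1.23 to -0.97 in null pools and -0.43 to -0.02 in wild-type pools. The part of neural tissue in the pools in these falls was not tested.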

How the data were processed

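Per the file headers, the authors' arrays (Agilent design 026655, build mm9, 1 colour) were read with Feature Extraction 10.7.3.1, and each deposited array file holds the spot's processed signal intensity, background-subtracted and spatially detrended but not scaled between arrays. The authors' deposited value table holds log2 values (median 6.76 to 6.77 per array, correlation with log2 scanner signal 0.9994 or more over 24158 probes). Its normalization is not stated in the labels, and it served as an alternative.

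Control spots and outlier flags were left out, spots of a probe were averaged, and log2 processed signal minus the array's 75th percentile was tested with limma 3.58.1 (lmFit, eBayes) in R 4.3.3 on 26865 probes with signal well above background on 3 or more of the 6 arrays, null against wild type without covariates, with Benjamini-Hochberg adjustment. The fit was also run on simulated data with independent noise on each array, so that run does not cover deviations shared between arrays. Nothing in the labels says how the embryos of different pools are related, so p-values measure the spread between pools. Genes outside the family were read on the brightest kept probe.

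Members and lists were chosen with earlier results of these data known. Named were all members, up to 4 called genes of each partner list or, with none called, the 2 with the smallest p, and the 5 genes most like Arid3b. Ezh2, Eed, Suz12, E2f1, the Y-linked genes and Xist were added after their values could be seen. Marker lists covered cardiomyocytes, pharyngeal endoderm (0 of 7 called by limma, 2 with an unadjusted p under 0.05), second heart field (0 of 6 called, 2 with an unadjusted p under 0.05), erythroid, megakaryocyte, neural and trophoblast giant cells (0 of 3 measured called, 1 with an unadjusted p under 0.05) and hypoxia. The trophoblast marker Prl3d1 read -3.20, -0.97 and 4.78 in null pools 1, 2 and 3, against -3.19, -2.99 and -3.30 in the wild-type pools. The other measured ones, Prl3b1 and Hand1, changed by -0.41 and -0.82. The part of trophoblast cells in the high Prl3d1 reading of null pool 3 was not tested. Alternatives were quantile or median scaling, normexp with an offset of 50 on median spot signals followed by quantile normalization, other filters and priors, array weights, a block by slide, the value table, gene-level fits and each pool left out.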

Additional observations from a re-analysis of the deposited data

How the results depend on the processing

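The fall of Arid3b on its brightest probe passed in all 17 alternatives, between -2.86 and -2.47. Leaving out 1 pool at a time gave the same extremes, -2.86 and -2.47. Counts moved more. Over all probes 2733 were called (1727 higher and 1006 lower), against 1263 when dim probes were not filtered, 4213 under array weights and 962 to 2175 with 1 pool left out (without wild-type pools 1, 2 and 3 the counts were 1963, 962 and 1302, and without null pools 1, 2 and 3 they were 2175, 1113 and 1325). Median scaling gave 3006, but with 1312 higher and 1694 lower. With the replicate number (the slide) as a block 936 were called, and the block gave 0 calls among the 16 other family probes and 0 among the partner genes. The numbers are not shown to pair the pools: same-numbered deviations correlated at -0.42, -0.10 and -0.42, and those of null pool 1 and wild-type pool 3 at 0.48. Leaving out these 2 arrays together, an alternative chosen after seeing the data, left 1108 calls, 0 in the family and 0 among partners. The single call among the other 16 family probes became 0 with median scaling and with no filter, 2 with array weights (Jarid2 and Arid5a) and 0 to 1 with 1 pool left out, where the 1, without null pool 1, was Arid5a. The 3 partner calls became 5 with median scaling (without Ezh1), 7 with normexp and quantile normalization (without Suds3), 0 with no filter, 6 with a filter on all 6 arrays, 6 with a trended and robust prior, 11 with array weights and 0 to 3 with 1 pool left out. The sign turned only for changes near 0. With median scaling the Arid1a probes A_55_P2167769 and A_66_P116888 were at -0.0074 and -0.033 and the Arid2 probe A_55_P2001073 at -0.058. A_66_P116888 was at -0.14 with array weights and -0.055 without both pools, and with 1 pool left out it ran from -0.43 to 0.47. With 1 pool left out A_55_P2167769 ran from -0.073 to 0.26, A_55_P2001073 from -0.012 to 0.15 and the Arid4a probe A_51_P156927 from -0.18 to 0.13. The cause of these shifts was not tested. Probes near background (Arid5b, Kdm5d, Hs3st2, Nkx1-2, the dimmer Arid3b probes) had smaller changes with normexp and quantile normalization. The brightest probe of a gene was chosen anew under each setting, and of 17 named genes outside the family only Smarce1 changed probe with it.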
